A study of Mus musculus domesticus with 6 samples.

Results

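The 38 genes described here encode proteins that carry cells through G2 and mitosis. They were chosen by symbol as known targets of repression by p53 and the DREAM complex. The rule uses no measured value, but earlier results of these data were known when the genes were chosen. All 38 were found among the 55359 entries of each gene table. They were measured by RNA sequencing in BFU-E (burst-forming unit-erythroid), an early progenitor of red blood cells, isolated from E14.5 mouse fetal livers. All 6 samples were homozygous for a floxed Exosc3 gene (Exosc3 fl/fl), whose product belongs to the RNA exosome, a complex that processes and degrades RNA. Of these, 3 were Cre-negative and 3 were Cre-positive, with Cre driven by the Vav1 promoter, which is active in blood cells. The design text places 2 samples in each of 3 litters. Sorted cells were lineage-negative, Kit-positive and low for CD24 and CD71, and the labels give a GFP-positive gate for all 6 samples without saying how it was set for Cre-negative embryos.

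As background, mitosis is entered when cyclin B and CDK1 are activated by CDC25 phosphatases. It proceeds through spindle assembly and a checkpoint that holds anaphase until every chromosome is attached. Genes for this machinery are transcribed late in the cell cycle under B-MYB, FOXM1 and the MuvB core. When p53 induces p21, the DREAM complex assembles on the same promoters and represses them. In blood progenitors these genes are widely used as markers of dividing cells.

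Libraries held between 89629949 and 124931215 expected counts. Exosc3 was at 51.9, 44.3 and 48.0 CPM (counts per 1e6 of the scaled library) in Cre-negative replicates 1, 2 and 3, and at 26.8, 22.1 and 30.2 CPM in the Cre-positive replicates (adjusted p = 0.259 by edgeR's quasi-likelihood test and 0.00294 by DESeq2, in a range of 0.00294 to 0.582 across the settings tried). Over all 13117 genes tested, edgeR called 16 higher and 0 lower with Cre (adjusted p under 0.05), and limma-voom called 20 and 0. DESeq2, with its own filter, called 316 and 303 of 13834 genes. Unadjusted, edgeR had 531 and 549 with p under 0.05. The 8 tested erythroid markers, Car2 among them, summed to 1214 to 1447 CPM in Cre-negative and 1457 to 1852 CPM in Cre-positive libraries. Of these, 7 had log2 fold changes above 0 and 1, Kit, below. Kit was at 375 to 426 CPM in Cre-negative and 334 to 355 CPM in Cre-positive libraries (adjusted p = 0.614, edgeR). Its groups did not overlap, with lower Cre-positive values, as for 7.66% of all tested genes. Gata1 was at 83.3 to 128 CPM in every library. Of the 5 hepatocyte markers, Afp, Ttr and Serpina1a had 0 counts in all 6 libraries, and the 5 summed to 0 to 0.88 TPM (transcript abundance scaled for length and library). The 7 tested neutrophil and monocyte markers summed to 571 to 1479 CPM in Cre-negative and 229 to 508 CPM in Cre-positive libraries, with Ly6c2 at 0 in all. The 3 tested lymphoid markers summed to 31.5 to 108 and 1.59 to 7.66 CPM, with Dntt and Cd3e at 0 in all. Car2, an erythroid carbonic anhydrase, was the single marker gene called by edgeR with no block, at 226 ± 18.8 CPM without and 483 ± 67.3 CPM with Cre (SD, n = 3 each). DESeq2 also called 2 myeloid markers lower, Prtn3 and Spi1. Of the 7 listed lymphoid markers it called 2 lower, and of the 3 tested by edgeR only Il7r was among them. Over all the genes it tested, DESeq2 called 2.19% lower. The 6 stem and multipotent markers summed to 211 to 455 and 77.1 to 216 CPM. For the 5 megakaryocyte markers the sums were 25.9 to 52.5 and 37.0 to 60.3 CPM. For the 3 tested endothelial and stromal markers they were 18.6 to 35.8 and 5.68 to 22.4 CPM. Cpa3, the 1 mast cell and basophil marker tested, was at 0.665 to 9.46 and 0.974 to 3.61 CPM. The part of these other cell types in the levels below was not tested, and in sorted bulk RNA fewer cells in cycle and less RNA per cycling cell cannot be told apart.

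None of the 38 G2 and mitosis genes passed edgeR's test, and their summed level overlapped between the groups. Summed over the 38 genes, the level was 3617, 3322 and 3538 TPM (transcript abundance scaled for length and library) in the Cre-negative replicates and 3450, 3479 and 3769 TPM in the Cre-positive replicates. The lowest sum was that of Cre-negative replicate 2 and the highest that of Cre-positive replicate 3. In CPM, which does not use transcript length, the sums were 8377, 8305 and 8644 against 8647, 8630 and 8791, with a narrow overlap. By edgeR 0 of 38 were called in either direction, where the background was 0.122% of tested genes higher and 0% lower, and 0 by limma-voom, with a background of 0.152% and 0%. DESeq2 called 0 higher and 1 lower, Aurkb, beside 2.28% and 2.19% of the genes it tested. Before adjustment, edgeR's p was under 0.05 for Cenpe, Hmmr and Mki67 (3 higher, background 4.05%) and for Aurkb and Birc5 (2 lower, background 4.19%). Log2 fold changes ranged from -0.49 (Aurkb) to 0.29 (Cdc20) with a median of -0.06, beside -0.01 over all tested genes. Of the 38, 15 were above 0 and 23 below.

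The intervals limit how large a change could have been missed in the count fit, which does not use the estimated transcript lengths described below. With those lengths as offsets, the log2 fold changes of Espl1 (1.00), Cdca8 (0.56) and Incenp (0.28) lay above their count-fit intervals. Those intervals ended at 0.45, 0.30 and 0.19, and none of the 38 genes was called with offsets. For 35 of the 38 genes the 95% interval of the fold change, taken gene by gene with no adjustment, lay inside a 2-fold change in both directions. For 25 it lay inside a 1.5-fold change. Over all tested genes, many of them less abundant, 42.01% had intervals inside 2-fold. The lower 2-fold bound was passed by the intervals of Cdc25b (-1.19 to 0.50 on the log2 scale), Cdc25c (-1.58 to 0.71) and Mad2l1 (-1.09 to 0.31).

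**Figure D1:**
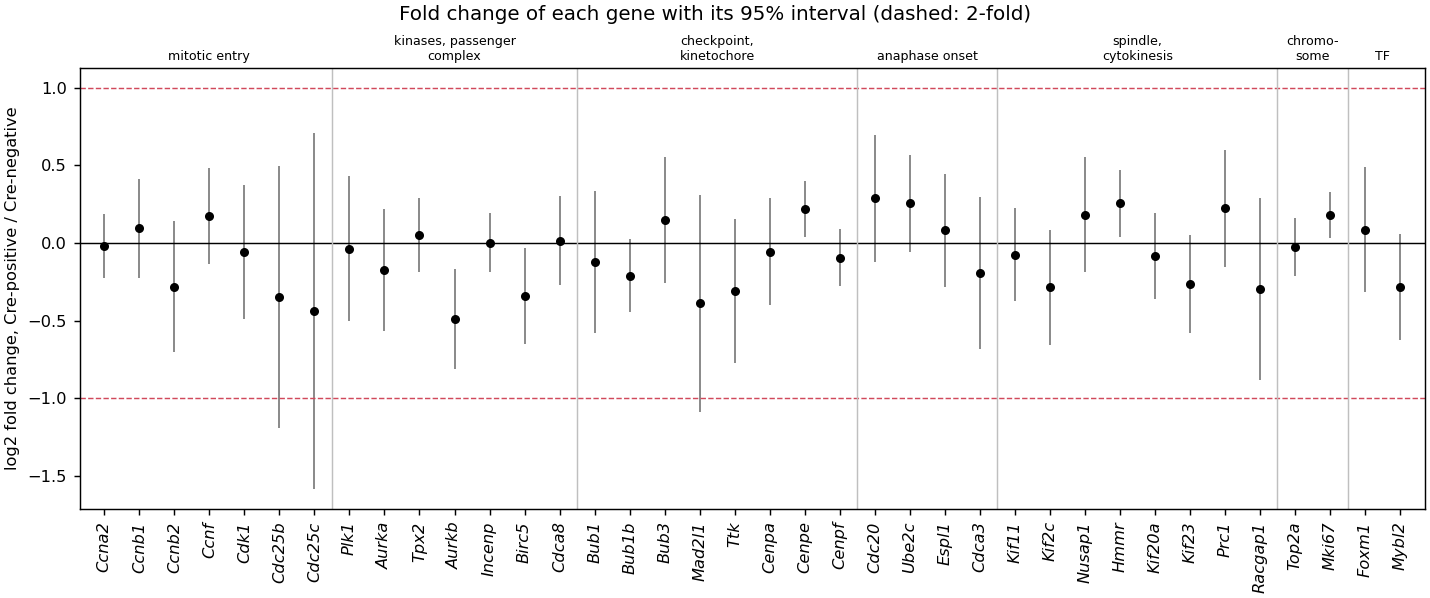
Log2 fold change (Cre-positive over Cre-negative, y axis) of each of the 38 genes, grouped by role (TF, transcription factors). Points are edgeR estimates without effective length offsets, bars are 95% intervals, and dashed lines mark 2-fold. Intervals of Cdc25b, Cdc25c and Mad2l1 cross the lower dashed line, and the other 35 stay inside both.

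Levels differed far more between genes than between groups. Mean TPM over the 6 libraries ran from 8.47 for Cdc25c to 299.7 for Incenp, a 35.4-fold span, with a median of 64.1 TPM. Mki67, which encodes the Ki-67 protein that coats mitotic chromosomes, was next to Incenp at 299.4 TPM. After these came the ubiquitin-conjugating enzyme gene Ube2c at 229 TPM and the DNA topoisomerase gene Top2a at 216 TPM. By TPM, 12 of the 38 lay in the top 10% of tested genes and 29 in the top 25%. The lowest after Cdc25c were Cdc25b (20.4 TPM) and Mad2l1 (29.2 TPM), the same genes whose intervals were widest.

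**Figure D2:**
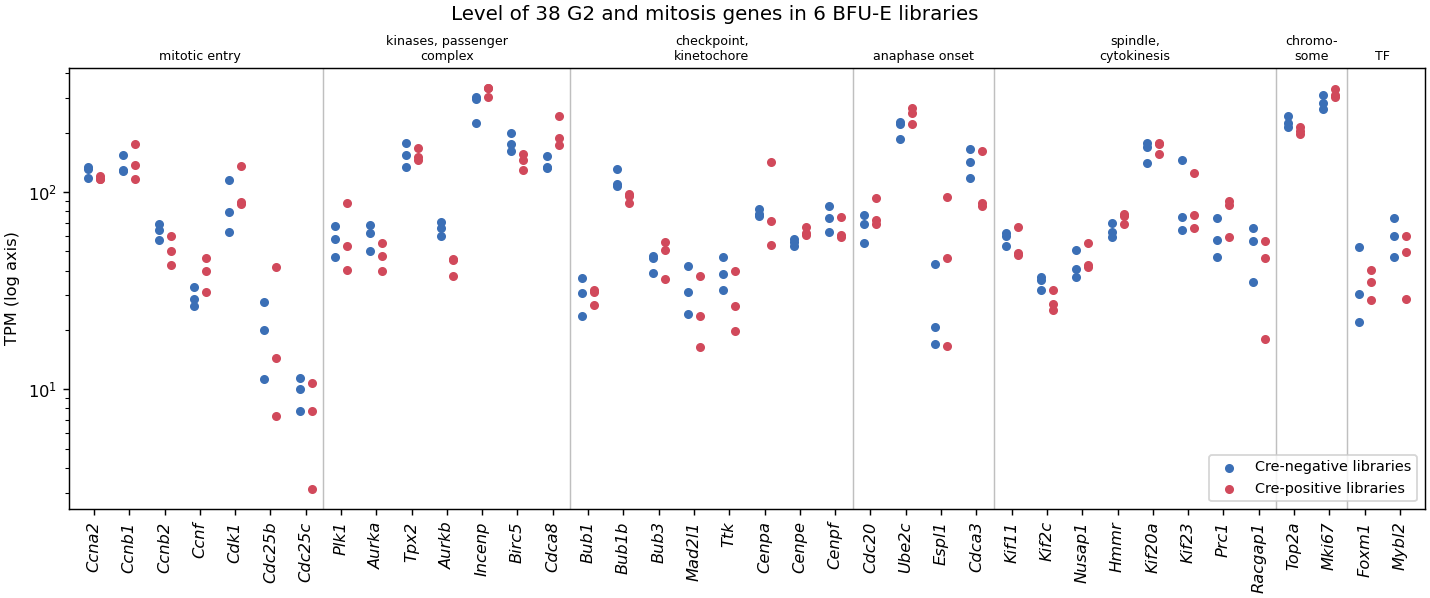
TPM of each gene (log axis) in the 3 Cre-negative and 3 Cre-positive libraries, 1 point a library. The range between genes, from 8.47 TPM for Cdc25c to 299.7 TPM for Incenp as means of 6 libraries, is wider than the difference between the groups for any gene.

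Among the genes of mitotic entry, none of 7 passed. The background for this and the role groups below was 0.122% of all tested genes called higher by edgeR and 0% lower. Ccnb1, which encodes the main mitotic cyclin, was at 165, 139 and 145 CPM in Cre-negative replicates 1, 2 and 3 and at 191, 145 and 142 CPM in the Cre-positive replicates. Ccnb2, which encodes the other cyclin B of this group, was at 73.7, 61.4 and 66.3 against 66.3, 45.6 and 53.9 CPM. For both cyclins the groups overlapped, and the counts of Ccnb1 are uncertain because some of its reads were split with other entries. The cyclin F gene Ccnf, a ubiquitin ligase subunit, was at 88.1, 80.6 and 99.2 against 95.7, 99.8 and 107 CPM. Cdc25b, a phosphatase that activates CDK1, was at 19.2, 15.7 and 30.6 against 18.3, 11.7 and 21.5 CPM. These also overlapped, and the 7 log2 fold changes ran from -0.44 to 0.17. Cdk1 itself, the kinase at the centre of mitotic entry, averaged 66.7 ± 9.30 CPM without Cre and 64.0 ± 11.2 CPM with Cre (SD, n = 3 each), and Ccna2, the cyclin A2 gene, 266 ± 16.3 and 263 ± 8.84 CPM. Cdc25c was the most variable member among Cre-positive libraries. It was at 18.3, 15.6 and 11.4 CPM, then 17.1, 11.6 and 4.68 CPM, and its log2 fold change of -0.44 was -0.07 without Cre-positive replicate 3 and -0.89 without Cre-positive replicate 1.

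The mitotic kinase and chromosomal passenger group held the lowest fold change. Aurkb (ENSMUSG00000020897), the kinase that corrects faulty attachments of chromosomes to the spindle, was at 77.5, 82.2 and 80.9 CPM in the Cre-negative replicates and at 58.8, 57.8 and 54.8 CPM in the Cre-positive replicates. The groups did not overlap. On the log2 scale the change was -0.49 ± 0.14 (SE), 0.713-fold, and the adjusted p was 0.316 by edgeR and 0.0184 by DESeq2. Alternatives gave adjusted p from 0.0184 to 0.595. With 1 library left out at a time it stayed between -0.51 and -0.46.

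Aurora B works in a complex with Birc5, Incenp and Cdca8, the genes for survivin, INCENP and borealin. Birc5 (ENSMUSG00000017716) was at 112, 98.7 and 98.7 CPM against 74.1, 82.1 and 88.5 CPM, again without overlap (log2 fold change -0.34, standard error 0.14, edgeR adjusted p = 0.549). Incenp was at 540, 491 and 542 against 559, 494 and 522 CPM. Its log2 fold change was 0.00 with an interval of -0.19 to 0.19, and 0.28 with effective length offsets (adjusted p = 0.757, edgeR). Cdca8 averaged 114 ± 10.2 and 116 ± 8.48 CPM (SD, n = 3 each). Of the 4 subunit genes, the Cre-positive values of Aurkb and Birc5 lay below the Cre-negative ones and those of Incenp and Cdca8 overlapped them. Lower Cre-positive values without overlap were found for 7.66% of all tested genes. Whether the subunits differ from each other was not tested. Aurka, the spindle pole kinase, was at 68.0, 80.1 and 74.4 against 77.6, 54.7 and 64.7 CPM. Its activator Tpx2 and the kinase gene Plk1 had log2 fold changes of 0.05 and -0.04, both with overlapping groups.

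**Figure D3:**
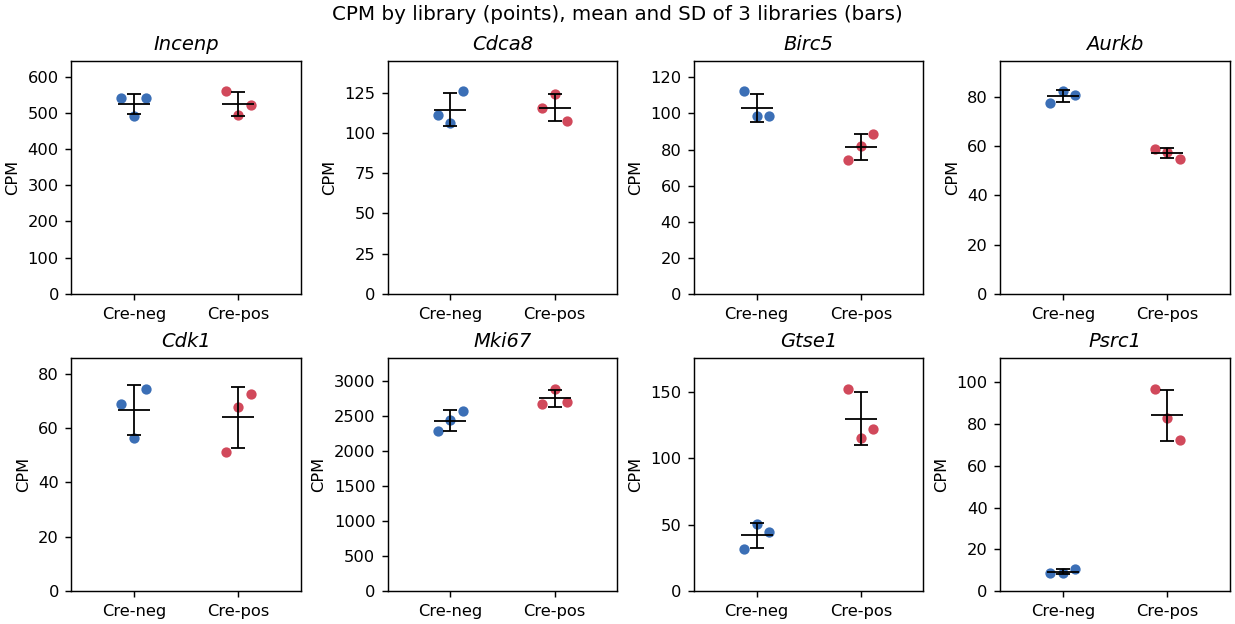
CPM (y axes from 0) in each library for the 4 passenger complex genes, Cdk1, Mki67, and the 2 called genes Gtse1 and Psrc1. Points are libraries, and bars are the mean and SD of 3. Groups overlap for Incenp, Cdca8 and Cdk1 and do not for the other 5 genes, as for 15.2% of all tested genes.

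In the spindle checkpoint and kinetochore group, none of 8 passed and the means lay on both sides. Cenpe (ENSMUSG00000045328), a kinetochore motor, was at 389, 362 and 365 CPM in the Cre-negative replicates and at 422, 424 and 454 CPM in the Cre-positive replicates. Its groups did not overlap (log2 fold change 0.22, SE 0.08, adjusted p = 0.478, edgeR). Bub1b (ENSMUSG00000040084), which encodes the checkpoint protein BUBR1, was at 307, 360 and 292 against 288, 262 and 280 CPM. Ttk (ENSMUSG00000038379), the checkpoint kinase MPS1, was at 46.4, 50.5 and 46.4 against 45.8, 32.4 and 37.4 CPM. Both were lower in all 3 Cre-positive libraries, by a narrow margin, with log2 fold changes of -0.21 and -0.31 and edgeR adjusted p of 0.687 and 0.849. Mad2l1, the checkpoint protein MAD2, was at 71.6, 67.7 and 45.03 against 30.9, 39.9 and 70.1 CPM. The groups overlapped, with replicate 3 the lowest of the Cre-negative libraries and the highest of the Cre-positive ones. Bub1, Bub3, Mad2l1, Cenpa and Cenpf, which act in the same checkpoint and at the kinetochore, had overlapping groups and log2 fold changes from -0.39 (Mad2l1) to 0.15 (Bub3).

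Genes of anaphase onset did not pass. Cdc20, which activates the anaphase-promoting complex, was at 100.2, 83.7 and 69.2 against 96.4, 123 and 89.8 CPM. Ube2c, the ubiquitin-conjugating enzyme of that complex, was at 128, 126 and 102 against 156, 125 and 143 CPM. These gave the highest log2 fold changes of the group, 0.29 and 0.26, with overlapping groups and adjusted p of 0.830 and 0.748 (edgeR). Cdca3, which promotes mitotic entry through ubiquitination, was at 95.6, 130 and 79.7 against 75.4, 78.8 and 112 CPM, and Espl1, the separase gene, averaged 108 ± 11.8 and 115 ± 20.6 CPM (SD, n = 3 each).

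Among spindle and cytokinesis genes, none of 8 passed. Hmmr (ENSMUSG00000020330), a spindle protein that also binds hyaluronan, was at 187, 182 and 194 CPM in the Cre-negative replicates and at 215, 224 and 235 CPM in the Cre-positive replicates. It did not overlap between groups (log2 fold change 0.26, standard error 0.10, edgeR adjusted p = 0.489). Kif23 (ENSMUSG00000032254), a motor of the central spindle, was at 91.7, 90.6 and 90.7 against 67.4, 81.0 and 78.8 CPM. It was lower without overlap, with a log2 fold change of -0.26 and an adjusted p of 0.733 (edgeR). Kif2c, which takes microtubules apart at the kinetochore, was at 75.8, 75.9 and 68.5 against 69.8, 53.9 and 57.0 CPM. Kif20a, another cytokinesis motor, was at 183, 205 and 206 against 181, 165 and 214 CPM. Groups overlapped for these, as for Kif11, Nusap1, Prc1 and Racgap1, whose log2 fold changes ran from -0.30 (Racgap1) to 0.22 (Prc1).

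Neither mitotic chromosome gene passed. Top2a, which untangles sister chromatids, was at 813, 769 and 923 against 807, 812 and 840 CPM, with an interval of -0.21 to 0.16 on the log2 scale. Mki67 (ENSMUSG00000031004) was at 2281, 2447 and 2580 CPM against 2670, 2895 and 2706 CPM. All 3 Cre-positive libraries lay above the Cre-negative ones, by 0.18 ± 0.07 (SE) on the log2 scale, and the adjusted p was 0.478 (edgeR). Its interval, 0.03 to 0.33, was the narrowest of the 38. The 2 transcription factor genes of the programme did not pass. Foxm1 was at 63.7, 64.4 and 87.3 against 67.0, 79.9 and 81.7 CPM. Mybl2, which encodes B-MYB, was at 123, 124 and 97.0 against 107, 85.9 and 89.8 CPM, with log2 fold changes of 0.09 for the first and -0.28 for the second. Counts of Mybl2 carry the same uncertainty as those of Ccnb1.

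In all, groups did not overlap for 8 of the 38 genes, beside 15.2% of all tested genes. Cenpe, Hmmr and Mki67 were the 3 with higher Cre-positive values, beside a background of 7.53%, and Aurkb, Birc5, Bub1b, Ttk and Kif23 the 5 with lower values, beside 7.66%. The number of the 38 genes above their own mean ran from 14 in Cre-positive replicate 2 to 25 in Cre-negative replicate 1. The median deviation of a library from each gene's own mean was between -0.08 (Cre-positive replicate 2) and 0.06 (Cre-negative replicate 1) on the log2 scale. Over all tested genes, with 0.5 added to each CPM, the medians were 0.0062 in Cre-positive replicate 2 and 0.0238 in Cre-negative replicate 1. Of the 38 genes, 12 had their lowest value in Cre-positive replicate 2 and 10 in Cre-negative replicate 2. The spread within groups was narrow for these genes, with a median coefficient of variation of 9.97% in Cre-negative and 13.0% in Cre-positive libraries, beside 26.9% and 26.7% over all tested genes, which include many at lower levels.

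**Figure D4:**
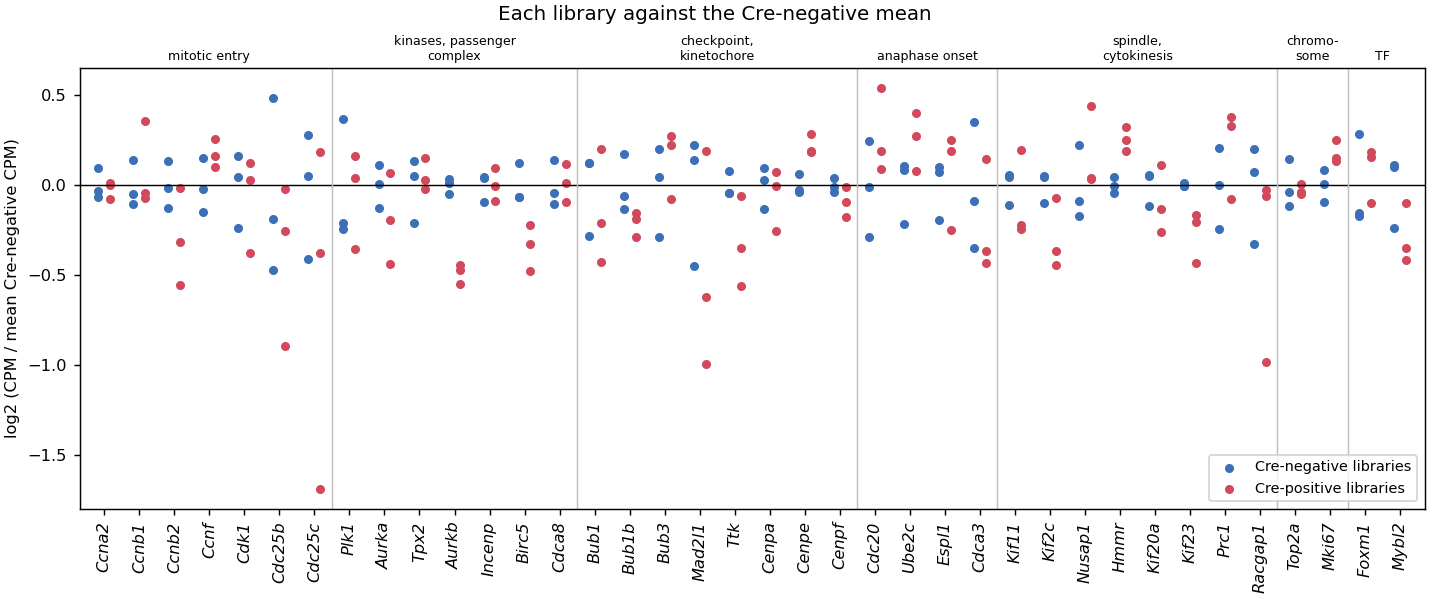
Log2 ratio of each library's CPM to the Cre-negative mean of the same gene, 1 point a library, genes grouped by role (TF, transcription factors). Of the 38 genes, 8 have groups that do not overlap, 3 above and 5 below, beside 15.2% of all tested genes. Cdc25c in Cre-positive replicate 3 lies farthest from 0.

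The deposited tables also give an effective length per gene, the length of its transcripts weighted by their estimated abundance, so it moves when the estimated mix of transcripts moves. For Cdca8 (ENSMUSG00000028873) it was 938, 890 and 957 bases in the Cre-negative replicates and 669, 567 and 688 bases in the Cre-positive replicates, while its CPM averaged 114 and 116. Its TPM, which divides by that length, was 132, 133 and 153 against 188, 243 and 173, higher in all 3 Cre-positive libraries. In TPM the groups did not overlap for 2 members with higher Cre-positive values (Cdca8 and Cenpe), beside 5.87% of tested genes, and for 5 with lower values (Aurkb, Birc5, Bub1b, Kif2c and Top2a), beside 7.67%. Effective length did not overlap between groups for 3 members with shorter Cre-positive values (Birc5, Cdca8 and Kif20a), beside 6.46% of tested genes, and for 1 with longer values (Aurka), beside 3.16%. With effective length as an offset in edgeR, the log2 fold change of Cdca8 was 0.56 in place of 0.02 (adjusted p = 0.482) and that of Cdk1 0.31 in place of -0.06 (adjusted p = 0.954). Espl1 moved most, to 1.00 from 0.08 (adjusted p = 0.835), and its effective lengths were 6270, 6267 and 3065 bases against 2911, 6067 and 1520 bases, without separating the groups. These lengths are model estimates, no table per transcript was analysed here, and Cdca8, Cdk1 and Espl1 were singled out after their values were seen.

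Other genes of the pathway were read from lists outside the 38. The lists were chosen with earlier results of these data known, so the background shares beside them are description and no test. Of 59 other G2 and mitosis genes, edgeR called 2 higher and 0 lower, beside 0.122% and 0% of all tested genes. Before adjustment 5 were lower with p under 0.05, beside 4.19%. Groups did not overlap for 3 with higher and 12 with lower Cre-positive values, beside 7.53% and 7.66%. Psrc1 (ENSMUSG00000068744), a spindle microtubule protein, rose from 8.64, 8.63 and 10.5 CPM to 97.1, 83.0 and 72.4 CPM, 9.08-fold, with a log2 fold change of 3.18 ± 0.22 (SE; adjusted p = 0.000362, edgeR). Gtse1 (ENSMUSG00000022385), a microtubule-binding protein of G2 and S phase, rose from 31.5, 50.1 and 44.2 CPM to 152, 115 and 122 CPM, 3.09-fold (adjusted p = 0.0205, edgeR). Both were higher in all 3 Cre-positive libraries, and both are known p53 targets. The call of Psrc1 held under every alternative. Gtse1 lost its call with effective length offsets (adjusted p = 0.122), without Cre-negative replicate 3 (0.0676) and without Cre-positive replicate 1 (0.107), 2 (0.0850) or 3 (0.0614), while its log2 fold change stayed between 1.497 and 1.71 in these fits, beside 1.63.

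The other genes of that list gave no edgeR call. The median log2 fold change over the 59 was -0.08. DESeq2 called 2 of them lower, Cdca5 and Lmnb1, beside 2.19% of the genes it tested. Cdca5, which encodes the cohesin protector sororin, was at 42.8, 40.03 and 33.5 against 23.6, 25.1 and 13.1 CPM. The nuclear lamin gene Lmnb1 was at 1138, 1135 and 1270 against 1012, 1043 and 979 CPM. Neither overlapped between groups, and neither passed by edgeR (adjusted p = 0.393 and 0.384). Jpt1 and Bora, an activator of Aurora A, came next by p, with log2 fold changes of -0.47 each.

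**Figure D5:**
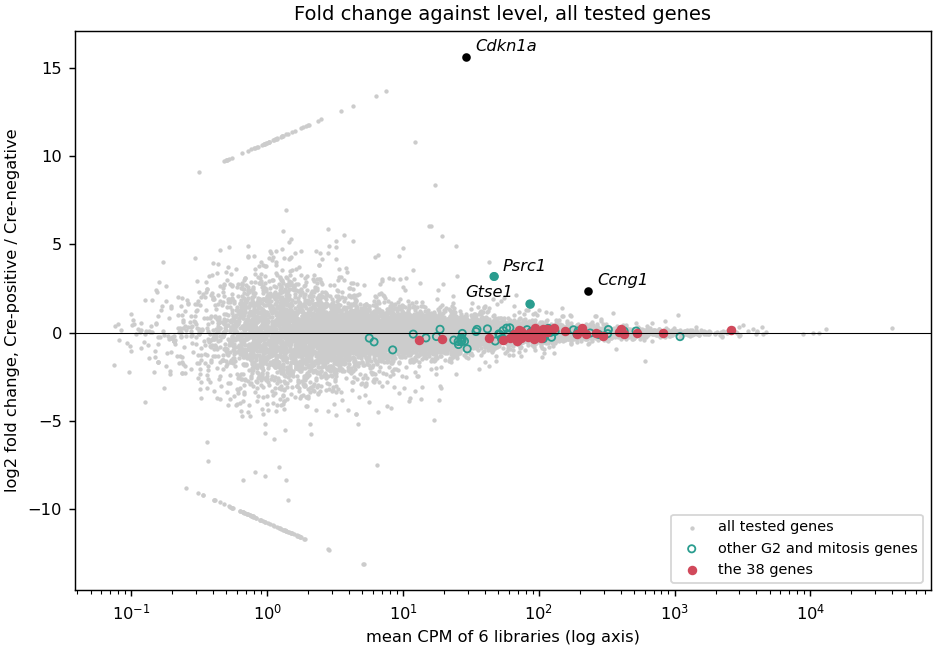
Log2 fold change (y axis) against mean CPM of 6 libraries (log axis) for all 13117 tested genes, with the 38 genes filled and 59 other G2 and mitosis genes as circles. The 38 lie between -0.49 and 0.29, Gtse1 and Psrc1 at 1.63 and 3.18, and the diagonal lines of grey points are genes with 0 counts in 1 group.

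Genes that act on the programme, also listed with earlier results of these data known, were measured in the same fit. Cdkn1a, the p21 gene, rose from 0 counts in all 3 Cre-negative libraries to 7822, 4951 and 6523 counts (adjusted p = 0.000111, edgeR, and 0.178 by limma-voom). Set against 3 counts in each Cre-negative library in place of 0, its Cre-positive mean was 2091-fold higher. That ratio follows from the 3 counts chosen and is not a lower bound. Genes seen in 1 library only had a median count of 108, so 0 counts can go with a higher true level. Ccng1, the cyclin G1 gene, was called too, at 80.6, 59.9 and 84.6 against 404, 409 and 352 CPM (adjusted p = 0.000218, edgeR). These were the 2 calls among 8 tested p53 targets linked with the G2 checkpoint, and none was lower. Over all tested genes edgeR called 0.122% higher and 0% lower. By limma-voom 1 of the 8 was called higher, beside 0.152% of all tested genes. DESeq2 called 3 higher and 0 lower, beside 2.28% and 2.19% of the genes it tested. The third was Plk2, a polo-like kinase gene, at 0.322, 0 and 0 against 33.1, 31.0 and 38.2 CPM (adjusted p = 0.0647 by edgeR and 0.0101 by DESeq2). Rprm, the ninth on that list, had 0 counts in every library.

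The DREAM and MuvB subunits did not pass. Of 10 tested, edgeR and limma-voom called 0 in either direction, beside 0.122% and 0.152% of all tested genes higher and 0% lower. Before adjustment, Rbl2 was higher and Rbl1 lower with edgeR's p under 0.05, beside 4.05% and 4.19% of all tested genes. DESeq2 called 1 higher and 0 lower, beside 2.28% and 2.19% of the genes it tested. Rbl2, the p130 pocket protein of DREAM, was at 61.6, 57.4 and 64.5 CPM in the Cre-negative replicates and at 83.4, 97.9 and 76.6 CPM in the Cre-positive replicates. Rbl1, its relative p107, was at 100.3, 112 and 100.02 against 74.5, 74.3 and 86.8 CPM. The pair lay on opposite sides, at 0.49 and -0.41 on the log2 scale (adjusted p = 0.378 and 0.411 by edgeR). Neither overlapped between groups, as for 15.2% of all tested genes, and Rbl2 passed by DESeq2 (adjusted p = 0.0362).

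The anaphase-promoting complex showed no call by edgeR, DESeq2 or limma-voom among its 15 tested genes. Over all the genes each tested, these called 0.122%, 2.28% and 0.152% higher and 0%, 2.19% and 0% lower. None of the 15 had an unadjusted p under 0.05 by edgeR, beside 4.05% of all tested genes higher and 4.19% lower. Anapc4 and Cdc27 had the smallest p, with log2 fold changes of 0.33 and -0.16. Replication and S phase genes, the part of the cycle before G2, were also measured. Of 41 tested, edgeR called 0, beside 0.122% of all tested genes, and the median log2 fold change was -0.01. Before adjustment, Dbf4 was higher and Gins4 lower (edgeR p under 0.05), beside 4.05% and 4.19% of all tested genes. Groups did not overlap for 2 with higher and 5 with lower Cre-positive values, beside 7.53% and 7.66%. DESeq2 called Dbf4, an activator of the origin kinase CDC7, higher (64.6 ± 2.47 to 91.3 ± 5.72 CPM, adjusted p = 0.0113). It called Gins4, a subunit of the replicative helicase, lower (37.6 ± 8.60 to 19.5 ± 1.97 CPM, adjusted p = 0.0103, SD, n = 3 each). Over all the genes it tested, DESeq2 called 2.28% higher and 2.19% lower. Of the 41, limma-voom called 0, beside 0.152% of all tested genes higher and 0% lower.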

How the data were processed

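Total RNA of 6 sorted BFU-E samples was sequenced after library preparation with a stranded Takara SMARTer Pico kit, per the labels. The submitters' processing notes name STAR 2.5.3a, RSEM 1.3.0 and the build GRCm39. Neither annotation release nor strand setting is given there, and no coordinates or promoter sequences are printed because no genome of that build was used here. The authors deposited an expected count per gene, with TPM, FPKM and effective length, per the file headers. FPKM was not used.

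Symbols were matched by Ensembl identifier without version for 52081 entries of 55359. Expected counts were rounded (2.64% were not whole; among the 38 genes, the counts of Ccnb1 and Mybl2 were not whole in any library, so some of their reads were shared by the model). edgeR 4.0.16 (filterByExpr, TMM, glmQLFit and glmQLFTest, R 4.3.3) compared the groups over 13117 genes with Benjamini-Hochberg adjustment; all 38 genes passed the filter. Intervals use the standard error (log2 fold change over the root of F) and the fit's degrees of freedom. CPM uses TMM-scaled totals. DESeq2 1.42.0 and limma-voom (limma 3.58.1) were alternatives. The scripts were tested on simulated data.

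Members and lists were chosen with earlier results of these data known. In each role group the 3 members with the smallest p and the one with the highest TPM are given by library; others are given by fold change, and Ccna2, Cdc25c, Cdca8, Cdk1, Espl1 and Mad2l1 were added after their values were seen. Lists name each gene edgeR called or the smallest p; Plk2 and the genes named as DESeq2 calls were added after their values were seen where they fell outside this. Of the listed genes, only Lin54 had no matching entry. The labels do not say that a replicate number marks a litter, nor whether a sample is 1 embryo or a pool. P-values measure only the spread between these samples, which may be technical. The 2095 genes seen in 1 library only had a median count of 108, so no interval from counting error alone is given.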

Additional observations from a re-analysis of the deposited data

How the results depend on the processing

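Of the 38 genes, none was called higher under any alternative, and 1 was called lower by DESeq2 alone (Aurkb). The median log2 fold change of the 38 was -0.078 with library totals alone and 0.025 with effective length offsets, and ranged from -0.058 to -0.037 with 1 library left out at a time. With offsets, 21 of the 38 were above 0 in place of 15; the cause was not tested. Over all genes, higher calls numbered 316 with DESeq2, 33 without a filter on low counts, 58 with a mean of at least 1000 counts, 6 with offsets and 7 to 15 with 1 library left out at a time. Lower calls numbered 303, 6, 26 and 0 under the first 4 of these and 0 to 3 with 1 library left out at a time. Among the 59 other G2 and mitosis genes, 1 was higher with offsets and 1 to 2 with 1 library left out at a time, and 2 were lower with DESeq2. The cause of these shifts was not tested. A replicate block in edgeR gave 38 higher and 18 lower calls over all genes and 0 among the 38 described here. It also called Plk2 higher (adjusted p = 0.0201) and the markers Mpo (0.000868), Hmga2 (0.00633) and Flt3 (0.0105) lower, which edgeR with no block did not (0.0647, 0.235, 0.229 and 0.234). Same-numbered samples correlated at 0.026 to 0.073 in their deviations from group means, each highest with its own number, which is a hint from the data and not the design. Scaling by DESeq2 size factors, upper quartiles or library totals kept the count of 16. Of the 38 genes, 23 kept the sign of their fold change under every alternative. The lowest count of the 38 genes in a library was 540 (Cdc25c, Cre-positive replicate 3).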
